A study of Mus musculus with 96 samples.

Results

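Potassium channels set the membrane voltage of tubule cells and let potassium recycle or leave the body, and 10 of the genes that build them were followed along the whole mouse nephron. The members were chosen by name, as potassium channel genes known from the tubule: Kcnj1, Kcnj10, Kcnj13, Kcnj15 and Kcnj16 of the inward rectifier (Kir) family, Kcnk1 and Kcnk5 of the K2P family of background channels, the voltage-gated Kcnq1 with its accessory subunit Kcne1, and the calcium-activated Kcnma1. Each of the 10 symbols stood in exactly 1 row of the 54532 genes of the table. All 10 reached a TPM (transcript abundance scaled for length and to a fixed library total) of 1 in at least 3 mice, the floor for testing, which 33793 genes passed. TPM divide by transcript length, which allows an approximate comparison of levels between genes. The annotation behind those lengths is not given, and differences in capture between genes were not tested.

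The study charted gene expression along the nephron of untreated male C57BL/6 mice aged 6 to 8 weeks, fed normal chow. Glomeruli (GL) and 14 kinds of tubule segment were dissected by hand and sequenced from very small amounts of RNA, and 93 such samples, 6 of them glomeruli, came from 53 mice. Each mouse number in a segment was counted as 1 replicate after its pieces were averaged, which gave 5 mice each in PTS2, CTAL and CCD, 4 each in ATL and OMCD and 3 in each of the other groups. The proximal tubule was sampled at its start in the convoluted part (PTS1), in the straight part of the medullary rays (PTS2) and at its end in the outer stripe (PTS3). Thin limbs were those descending in short loops (DTL1), those descending in long loops, taken from the outer medulla as DTL2 and from the inner medulla as DTL3, and those ascending (ATL). The thick ascending limb was taken from the medulla as MTAL and from the cortex as CTAL. DCT stands for the distal convoluted tubule and CNT for the connecting tubule, and the collecting duct was cut from the cortex as CCD, from the outer medulla as OMCD and from the inner medulla as IMCD. No label names a treatment or an altered gene, so each comparison is between places in the kidney. A dissected piece holds every cell that came with it, and fewer cells of a type and less RNA per cell cannot be told apart.

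Potassium enters tubule cells through the sodium pump and leaves through channels in either face of the cell. Channels in the basolateral membrane return it to the blood side and set the voltage that drives chloride and bicarbonate exit. Channels in the luminal membrane recycle it for the sodium-potassium-chloride cotransporter in the thick limb and secrete it in the connecting tubule and collecting duct. Kir subunits assemble as tetramers, K2P subunits as dimers, and Kcnq1 tetramers can take up Kcne1, which slows their opening.

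Several marker genes of the segments were high where the labels place them. Podxl, a podocyte gene, averaged 2391 TPM in GL and at most 30.9 TPM in any tubule group. Slc5a2 peaked in PTS1 at 2792 TPM, Slc14a2 in DTL1 at 7555 TPM, Slc12a3 in DCT at 5782 TPM and Aqp2 in IMCD at 27393 TPM, while Slc12a1 averaged 4116 TPM in MTAL and 6135 TPM in CTAL. Other markers were less confined. Umod, a thick limb gene, averaged 36934 TPM in CTAL but also 1808 TPM in DCT, and Aqp1 averaged 18.2 TPM in PTS1 and 519 TPM in PTS2. The 18 segment markers summed to only 176 to 255 TPM in ATL, and none of those named here marks that segment. Groups differed in how many genes gave trace signals. Of 1740 odorant and vomeronasal receptor genes, a median of 860 in DTL1, 623 in GL, 484 in DTL3, 309 in DTL2, 302.5 in ATL and 99.5 in OMCD had at least 1 TPM, against 0 to 24 in the other groups, and in ATL the count ran from 17 to 659 between mice. Where a member stood at a few TPM in those groups, the part of such trace signal in its level was not tested.

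All 10 members differed among the 15 groups (moderated F-test in limma on log2(TPM + 1), Benjamini-Hochberg adjustment over 33793 genes), with adjusted p from 2.27e-43 for Kcnj1 to 2.46e-09 for Kcnma1. Of all genes tested, 93.9% passed the same test, so the count of 10 is near the background. A stricter rule asked whether the highest group was above each of the other 14 (one-sided tests against a difference of 0, with the largest p kept) and whether its estimated margin was at least 1 log2 unit. Of the 10 members 1, Kcnj13 in ATL, met it, against 8.8% of all genes. For each of the other 9 members at least 1 further segment mean lay within 1 log2 unit of the peak.

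**Figure D1:**
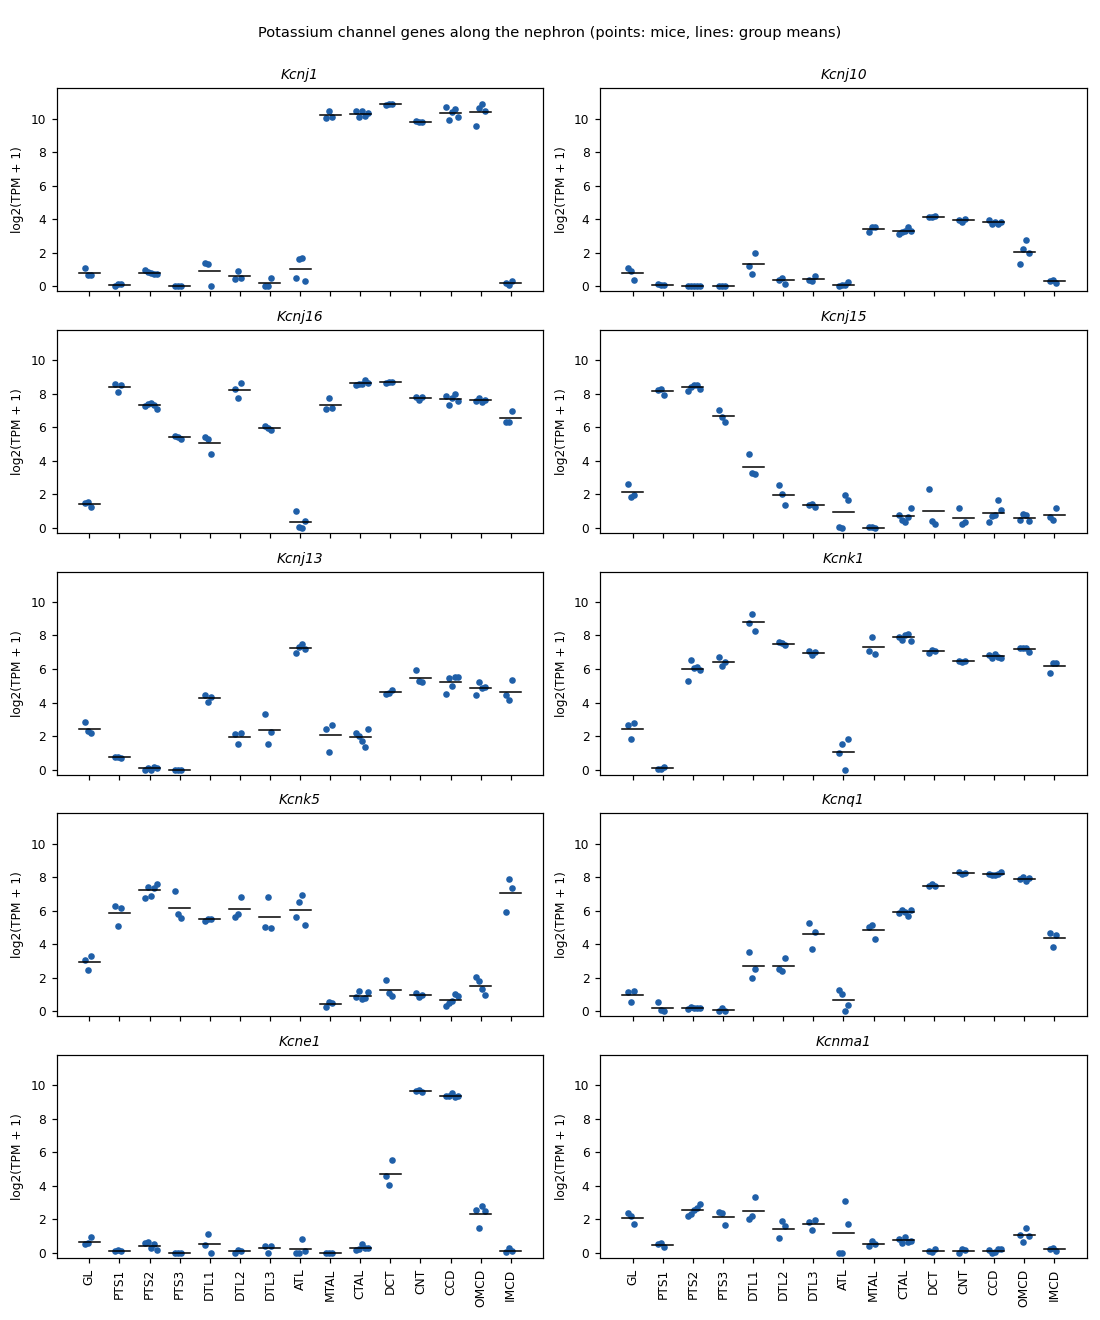
Level of each member as log2(TPM + 1) in every mouse (points) with the group mean (line), in 15 groups ordered from the glomerulus to the inner medullary collecting duct. Kcnj1 jumps between ATL and MTAL and drops between OMCD and IMCD, Kcnk5 does the reverse, Kcnj15 is high at the proximal end and Kcnj13 peaks in ATL.

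The table held 77 genes of the pore-forming potassium channel families, of which 9 are members. Summed over these 77, channel transcripts were most abundant from the thick limb to the outer medullary collecting duct. The total was 2644 ± 48 TPM in DCT (SD, n = 3), 2040 ± 145 in CTAL (n = 5), 2035 ± 301 in CCD (n = 5), 2118 ± 447 in OMCD (n = 4), 1690 ± 289 in MTAL (n = 3) and 1617 ± 63 in CNT (n = 3). In the proximal tubule and thin limbs the mean totals lay between 315 TPM in ATL and 794 TPM in DTL1, and IMCD held 395 ± 112 TPM (n = 3). The lowest mouse of those 6 distal groups, at 1507 TPM in OMCD, was above the highest mouse of any other group, at 945 TPM in DTL1. The 9 members made up 98.9% of the total in DCT and 72.1% in DTL1. In GL they made up 7.55%, and Kcng2, Kcnj12 and Kcnf1 led there with 15.4%, 14.0% and 11.1% of the total. The families were taken by symbol and include modifier subunits that do not conduct alone, Kcng2 and Kcnf1 among them.

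**Figure D2:**
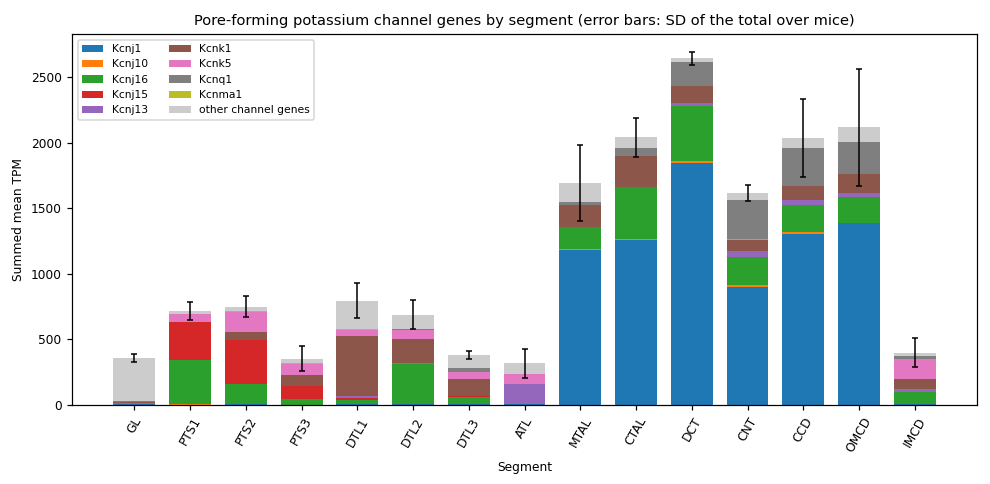
Summed mean TPM of 77 genes of the pore-forming potassium channel families in each group, modifier subunits included. Bars are split into the 9 pore-forming members and all others, with error bars for the SD of the total over mice. Kcnj1 is the largest block from MTAL to OMCD, and nearly all of the GL bar is the grey block of other genes.

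Between neighbouring segments, 50 of 140 member differences passed the test (limma, adjusted p under 0.05 over all genes and at least 1 log2 unit). Of all genes, between 1.12% (CNT to CCD) and 65.5% (PTS3 to DTL1) were called, depending on the pair. In all 50 the mice of the compared groups did not overlap. That count was not taken over all genes, so nothing is read from it. From ATL to MTAL 7 of the 10 members were called, against 28.1% of all genes. Kcnj1, Kcnj10, Kcnj16, Kcnk1 and Kcnq1 were higher in MTAL, and Kcnk5 and Kcnj13 were higher in ATL. From OMCD to IMCD 7 were called, against 18.6% of all genes. Kcnj1, Kcnj10, Kcnj16, Kcnk1, Kcne1 and Kcnq1 were higher in OMCD, and Kcnk5 was higher in IMCD. The calls of Kcnj16 and Kcnk1 between OMCD and IMCD were lost without IMCD mouse 1, at 0.95 and 0.84 log2 units, and that of Kcnj16 also without IMCD mouse 2, at 0.97. Under median ratio rescaling both were lost, at 0.74 and 0.70. The call of Kcnk1 was also lost under quantile normalization, at 0.92, and with pseudocounts of 5, at 0.99, and 0.1, at 1.04 (limma adjusted p = 0.0794), and that of Kcne1 with a pseudocount of 5, at 0.84. From PTS3 to DTL1 and from PTS3 to DTL2, 5 members each were called, against 65.5% and 40% of all genes, so neither count is far from the background. In PTS3 minus DTL1 Kcnj10 was -1.30, and its call was lost without DTL1 mouse 5, at -0.96, with a pseudocount of 5, at -0.40, and under quantile normalization, at -0.046 (limma adjusted p = 0.883). Kcnq1 was -2.63 in PTS3 minus DTL1, and its call was lost under quantile normalization, at -0.77 (limma adjusted p = 0.0745). In PTS3 minus DTL2 the call of Kcnk1 was lost without PTS3 mouse 2, at -0.96, and under quantile normalization, at -0.75. It was also lost with a pseudocount of 0.1, at -1.10 (limma adjusted p = 0.0593), and reversed to 0.13 under median ratio rescaling. The call of Kcnj13 in PTS3 minus DTL2 was lost with a pseudocount of 5, at -0.63. The median of all genes was itself higher after PTS3, with a difference of PTS3 minus DTL1 of -1.33 log2 units and of PTS3 minus DTL2 of -0.71.

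Among the other pairs, 4 members were called from PTS1 to PTS2 against 9.57% of all genes and 2 from PTS2 to PTS3 against 4.7%. Between DTL1 and DTL2, limbs of short and long loops that do not join, 5 were called against 28.2%. From DTL2 to DTL3 2 were called against 9.58% and from DTL3 to ATL 4 against 14.6%. In the distal nephron 2 were called from MTAL to CTAL against 3.15%, 3 from CTAL to DCT against 4.35%, 2 from DCT to CNT against 5.22% and 2 from CCD to OMCD against 12.1%. From CNT to CCD limma called 0 members at the adjusted threshold, where 1.12% of all genes were called, and 0 members at an unadjusted p under 0.05. The CNT and CCD mice of Kcnj1, Kcnk1 and Kcne1 did not overlap, although none of the 3 passed.

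**Figure D3:**
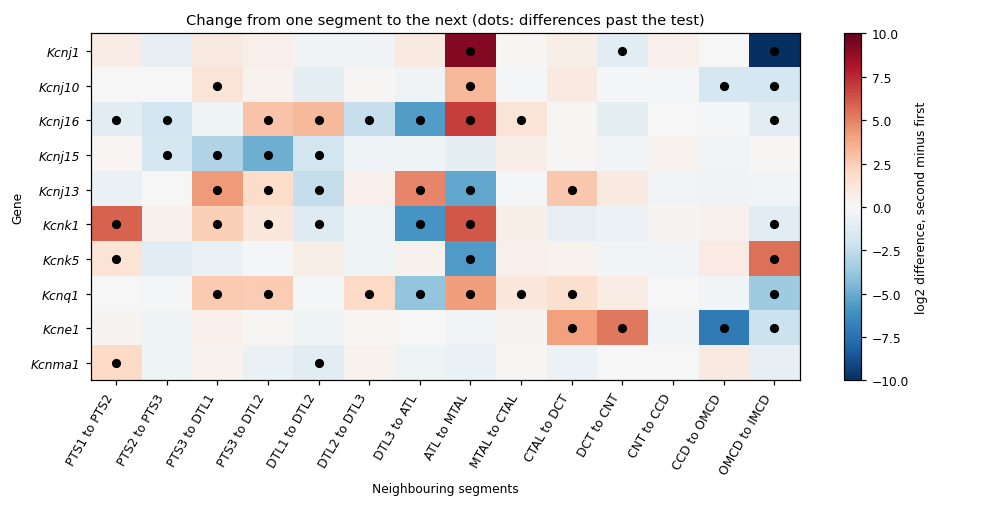
Log2 difference of each member between neighbouring segments (second minus first, in colour), with a dot where limma's test passed. The DTL1 to DTL2 column compares limbs of short and long loops, which do not join. Kcnj1 has the deepest colours, at ATL to MTAL and at OMCD to IMCD, and the CNT to CCD column has no dot.

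Kcnj1 encodes ROMK, the luminal channel that secretes potassium in the distal nephron and recycles it in the thick limb, and it reached the highest level of the 10 genes. It was 1041, 1099 and 1404 TPM in the 3 MTAL mice, between 1071 and 1411 (median 1276) in the 5 CTAL mice, and 1821, 1838 and 1878 in DCT. It was 884, 893 and 923 TPM in CNT, between 979 and 1618 (median 1339) in the 5 CCD mice, and 754, 1391, 1563 and 1834 in OMCD. No other mouse of the series exceeded 2.17 TPM of Kcnj1. The gene was listed at 0 in all 3 PTS3 mice and was 0.077, 0.15 and 0.22 TPM in IMCD. DCT had the highest mean (1846 ± 29 TPM, n = 3) and CNT the lowest of these 6 groups (900 ± 21, n = 3), a log2 difference of 1.03 (SE 0.28, limma adjusted p = 0.00900). That call was lost with a pseudocount of 0.1, at 1.04 (limma adjusted p = 0.445), and under quantile normalization, at 0.996. Over OMCD, the next in order, DCT had a margin of 0.49 (SE 0.26, limma adjusted p = 1), and the mice of DCT, OMCD, CCD, CTAL and MTAL overlapped from each group to the next.

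The edges of Kcnj1 were the steepest among the 140 member differences, at 9.16 log2 units from ATL up to MTAL (SE 0.26, limma adjusted p = 1.63e-29) and 10.17 from OMCD down to IMCD (SE 0.26, limma adjusted p = 1.12e-31). Of the transporters that work with ROMK, Slc12a1 and Scnn1b each shared 1 of these edges, and Scnn1a shared both. Slc12a1, the sodium-potassium-chloride cotransporter, averaged 10.3 TPM in ATL and 4116 TPM in MTAL, but it was low again earlier, with 6135 TPM in CTAL and 2.89 TPM in CCD, while Kcnj1 was at 1258 ± 156 (n = 5) and 1302 ± 270 TPM (n = 5). Scnn1b, a subunit of the epithelial sodium channel, averaged 691 TPM in OMCD and 0.24 TPM in IMCD, but only 0.55 TPM in CTAL, where Kcnj1 was high. Scnn1a, another subunit of that channel, averaged 1.11 TPM in ATL and 69.5 TPM in MTAL, and 194 TPM in OMCD and 0.53 TPM in IMCD. Between these edges it averaged 156 TPM in CTAL, 220 in DCT, 383 in CNT and 435 in CCD.

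Kcnj10 and Kcnj16 encode Kir4.1 and Kir5.1, which combine into the main basolateral potassium channel of the distal nephron. Kcnj16 was the more abundant transcript in every mouse from MTAL to OMCD. Kcnj10 was 16.4, 16.8 and 17.5 TPM in DCT, 13.0, 14.6 and 15.3 in CNT, and between 12.1 and 14.5 (median 13.0) in the 5 CCD mice. It was 8.24, 10.5 and 10.7 TPM in MTAL, between 7.64 and 10.7 (median 8.87) in the 5 CTAL mice, and 1.51, 2.94, 3.60 and 5.87 in OMCD. The DCT mice were above all others, the CNT and CCD mice overlapped, and the MTAL and CTAL mice overlapped below them. The fall from CCD to OMCD was 1.73 log2 units (SE 0.19, limma adjusted p = 2.06e-09), and that from OMCD to IMCD 1.78 (SE 0.22, limma adjusted p = 5.60e-09). With a pseudocount of 5 the latter was 0.67 and no longer reached 1 unit. Outside these groups no group mean of Kcnj10 exceeded 1.66 TPM, that of DTL1.

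Kcnj16 ranged much wider along the tubule. It was 403, 418 and 421 TPM in DCT, between 363 and 452 (median 379) in the 5 CTAL mice, and 277, 372 and 377 in PTS1. In the long-loop limb it was 218, 309 and 399 TPM in DTL2, then 55.3, 60.9 and 65.7 in DTL3, and in ATL it was 0, 0.06, 0.34 and 1.02. The ATL mice were below all other tubule mice, and both sides of the gap passed the test, at 5.56 log2 units between DTL3 and ATL (SE 0.20, limma adjusted p = 1.24e-25) and 6.95 between ATL and MTAL (SE 0.20, limma adjusted p = 2.30e-29). Within the proximal tubule Kcnj16 fell from 342 ± 57 TPM in PTS1 to 158 ± 15 in PTS2 (n = 5) and 41.7 ± 2.5 in PTS3 (n = 3), by 1.10 log2 units (SE 0.19, limma adjusted p = 1.71e-05) and 1.91 (SE 0.19, limma adjusted p = 3.11e-10). With the mouse number as a replicate block the first of these falls was 0.996 and no longer reached 1 unit. The short-loop DTL1 held 33.3 ± 11 TPM (n = 3) against 309 ± 90 in DTL2, a difference of 3.22 log2 units (SE 0.22, limma adjusted p = 7.42e-16). From CNT to OMCD Kcnj16 was level at 213 ± 15 TPM in CNT (n = 3), 208 ± 36 in CCD (n = 5) and 195 ± 16 in OMCD (n = 4), while IMCD held 95.3 ± 28 (n = 3).

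The balance of the paired subunits differed between segments. The ratio of mean Kcnj16 to mean Kcnj10 TPM was 14.9 in CNT, 16.0 in CCD, 16.7 in MTAL, 24.5 in DCT, 44.1 in CTAL and 56.1 in OMCD. Per mouse, Kcnj10 minus Kcnj16 on the log2(TPM + 1) scale was -5.32 ± 0.06 in CTAL (SD, n = 5) and -3.89 ± 0.25 in CCD (n = 5), with no overlap of mice. The difference of -1.43 passed a two-sided exact permutation test (p = 0.00794, the smallest that 252 splits allow, adjusted p = 0.0119 over 3 subunit tests). In the plot of subunit balance the CTAL mice sat close together and the OMCD mice spread from 4.71 to 6.25.

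**Figure D4:**
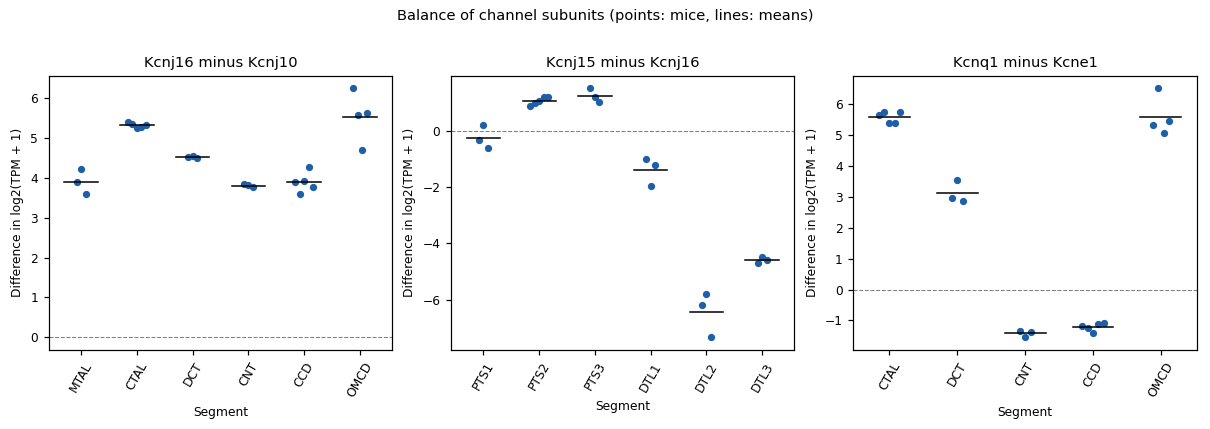
Difference in log2(TPM + 1) between paired subunits in each mouse (points) with group means (lines) for Kcnj16 minus Kcnj10, Kcnj15 minus Kcnj16 and Kcnq1 minus Kcne1, and a dashed line at 0. Kcnj16 exceeds Kcnj10 in every mouse shown, and Kcnq1 is below Kcne1 in CNT and CCD alone among the groups shown.

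Because Kcnj10 and Kcnj16 make one channel, the 250 bases before their transcript starts are shown, taken from RefSeq promoter windows on GRCm38.p6, which held 8 of the 10 members. The Kcnj16 sequence is the first of 4 windows for that gene. Capitals mark matches to the AP-2 letters GCCNNNGGC, which read alike on both strands, and to GTTAAT on either strand, the core of the HNF1 site. Kcnj10 lies at chr1:172340960-172341209 on the plus strand and Kcnj16 at chr11:110967783-110968032 on the plus strand.
Kcnj10: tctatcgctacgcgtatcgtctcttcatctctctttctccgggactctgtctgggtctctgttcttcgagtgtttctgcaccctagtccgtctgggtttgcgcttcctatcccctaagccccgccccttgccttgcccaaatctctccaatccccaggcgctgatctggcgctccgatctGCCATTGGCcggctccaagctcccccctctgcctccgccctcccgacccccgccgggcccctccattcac
Kcnj16: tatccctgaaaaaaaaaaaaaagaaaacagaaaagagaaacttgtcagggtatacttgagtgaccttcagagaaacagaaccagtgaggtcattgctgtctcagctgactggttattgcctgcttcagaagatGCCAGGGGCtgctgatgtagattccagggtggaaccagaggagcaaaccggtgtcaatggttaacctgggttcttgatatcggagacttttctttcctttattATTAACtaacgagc
The Kcnj10 window held 1 match to the AP-2 letters, at -70 from the start, and the Kcnj16 window held 1 at -117 and 1 match to the HNF1 core at -14, while the other 3 Kcnj16 windows held neither. Of all 32851 windows of this length, 13.7% held the AP-2 letters and 6.43% the HNF1 core. The Kcnj10 window was 62.0% G and C with 17 CG pairs, the Kcnj16 window 42.8% with 3, and the median window 52.4% with 6.

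Kcnj15 encodes Kir4.2, a relative of Kir4.1 that can also pair with Kir5.1 and that serves the basolateral membrane of the proximal tubule. It was 242, 302 and 313 TPM in PTS1, between 280 and 368 (median 339) in the 5 PTS2 mice, and 80.3, 95.2 and 127 in PTS3. PTS1 and PTS2 mice overlapped, and PTS3 mice were below both. The drop from PTS2 to PTS3 was 1.73 log2 units (SE 0.35, limma adjusted p = 0.000233), and with a pseudocount of 0.1 it was 1.74 and did not pass (limma adjusted p = 0.101). DTL1 held 8.14, 8.56 and 20.5 TPM, a further drop of 3.02 (SE 0.39, limma adjusted p = 4.97e-09), and no mouse beyond DTL1 exceeded 4.90 TPM outside GL, where the highest was 5.1. Proximal tubule transcripts were also present in DTL1: the summed TPM of 7 proximal markers was 1383 to 4940 there, against 74750 to 92022 in PTS3 and 166 to 643 in DTL2, and their part in the DTL1 level of Kcnj15 was not tested. GENCODE M21 places the noncoding Gm31641 on the strand opposite Kcnj15, and the kit does not keep strand, so its 8.31 TPM in PTS1 and 10.2 TPM in DTL1, where Kcnj15 averaged 12.4, could not be told apart from reads of the gene.

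By the ratio of means, the balance of Kcnj15 and Kcnj16 shifted along the proximal tubule, where no test compared it between segments. The ratio of mean Kcnj15 to mean Kcnj16 was 0.835 in PTS1, 2.11 in PTS2 and 2.42 in PTS3, as Kcnj16 fell between PTS1 and PTS2 and Kcnj15 differed by 0.22 log2 units (SE 0.35, limma adjusted p = 0.776). Per mouse, Kcnj15 minus Kcnj16 was -0.25 ± 0.41 log2 units in PTS1 (n = 3), from -0.62 to 0.19, so that PTS1 mice lay on both sides of 0. It was 1.07 ± 0.13 log2 units in PTS2 (n = 5) and -7.93 ± 0.33 in CTAL (n = 5). The difference of 8.998 between PTS2 and CTAL passed the two-sided exact permutation test (p = 0.00794, adjusted p = 0.0119 over 3 tests). Kcnj10, the distal partner of Kcnj16, had its highest proximal mouse at 0.085 TPM in PTS1. In DTL2 and DTL3 neither partner was abundant, with Kcnj15 at 3.20 ± 1.7 and 1.54 ± 0.21 TPM (n = 3 each) and Kcnj10 at 0.28 ± 0.16 and 0.37 ± 0.15, beside Kcnj16 at 309 ± 90 and 60.6 ± 5.2.

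Kcnj13 encodes Kir7.1, an inward rectifier best known from the retinal pigment epithelium and choroid plexus, and it was the member with a segment of its own. In the 4 ATL mice it was 123, 145, 157 and 182 TPM (mean 152 ± 24). The next in order was CNT with 36.7, 38.2 and 60.3 TPM, and the margin of ATL over it was 1.75 log2 units (SE 0.31, limma adjusted p = 0.000254 in the test against every other group). CCD held between 22.1 and 45.9 TPM (median 43.9, n = 5), OMCD 21.1, 27.7, 29.7 and 36.9, IMCD 16.9, 20.8 and 39.5, and DCT 21.8, 22.9 and 25.5. These distal groups overlapped from each to the next. The steps on either side of ATL were 4.87 log2 units from DTL3 (SE 0.31, limma adjusted p = 6.31e-17) and 5.21 to MTAL (SE 0.31, limma adjusted p = 2.24e-18), and from CTAL to DCT the gene rose by 2.67 (SE 0.30, limma adjusted p = 1.85e-09).

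The ATL mice differed in their trace signals. Kcnj13 passed the test against every other group both with ATL mice 2 and 3 alone and with mice 4 and 6 alone, the pairs that held the fewest and the most receptor genes. DTL1 stood out from the other descending limbs at 15.2, 19.4 and 21.0 TPM against 1.84 to 9.09 in DTL2 and DTL3. Kcnj13 lies opposite the coding gene Gigyf2 in GENCODE M21. Gigyf2 varied between 21.9 TPM in PTS2, where Kcnj13 was 0.051 ± 0.054 (n = 5), and 97.3 TPM in ATL, and without strand its part in the Kcnj13 reads was not tested.

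Kcnk1 encodes TWIK-1, a K2P subunit, and it reached the highest level of any member in a thin limb. It was 313, 431 and 621 TPM in DTL1, between 202 and 275 (median 239) in the 5 CTAL mice, and 170, 184 and 194 in DTL2. Every DTL1 mouse was above every other mouse, but the margin over CTAL was 0.89 log2 units (SE 0.25, limma adjusted p = 0.0162), short of 1 unit. Without the lowest DTL1 mouse the margin was 1.13 and passed (limma adjusted p = 0.00716). Kcnk1 was nearly absent at the start of the proximal tubule, at 0.015, 0.015 and 0.12 TPM in PTS1, and was between 38.2 and 91.0 (median 64.6) in the 5 PTS2 mice. That step of 5.89 log2 units (SE 0.25, limma adjusted p = 1.15e-23) was the largest of any member within the proximal tubule.

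Like Kcnj16, Kcnk1 had a gap at ATL, where it was 0, 0.96, 1.84 and 2.56 TPM between 111, 130 and 134 in DTL3 and 117, 133 and 237 in MTAL. The drop was 5.90 log2 units (SE 0.26, limma adjusted p = 1.14e-22) and the rise 6.20 (SE 0.26, limma adjusted p = 8.58e-24). Downstream it was 131 ± 7.3 TPM in DCT (n = 3), 86.5 ± 2.9 in CNT (n = 3), 107 ± 8.2 in CCD (n = 5), 147 ± 11 in OMCD (n = 4) and 72.7 ± 16 in IMCD (n = 3). The difference between PTS3 and DTL1 was 2.35 log2 units (SE 0.28, limma adjusted p = 6.84e-10), and that between PTS3 and DTL2 was 1.09 (SE 0.28, limma adjusted p = 0.000941). After each mouse was rescaled by its median ratio, Kcnk1 in PTS3 minus DTL1 was -0.97 (adjusted p = 0.000703, limma), and PTS3 minus DTL2 turned to 0.13 (adjusted p = 0.693, limma). In DTL1 the summed TPM of 8 endothelial markers was 3250 to 4386, against 4404 to 4423 in GL, where Kcnk1 was 2.60, 5.35 and 5.80 TPM. The mix of these markers differed, with Plvap at 2301 TPM in DTL1 and 271 TPM in GL and Kdr at 21.1 and 639 TPM, and their part in the Kcnk1 level was not tested.

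Kcnk5 encodes TASK-2, an alkali-sensitive K2P channel linked to bicarbonate transport in the proximal tubule, and its pattern was nearly the reverse of that of Kcnj1. It was between 107 and 192 TPM (median 163) in the 5 PTS2 mice, 32.5, 70.4 and 76.6 in PTS1, and 46.5, 55.1 and 144 in PTS3. It was 41.5, 44.6 and 44.8 TPM in DTL1, 49.1, 54.2 and 111 in DTL2, 30.3, 32.1 and 111 in DTL3 and 34.1, 48.5, 89.0 and 123 in ATL. The differences of PTS3 minus DTL1, 0.70 log2 units, and PTS3 minus DTL2, 0.09, did not pass. After median ratio rescaling they were 2.06 and 1.31 and passed (limma adjusted p = 5.13e-05 and 0.0110), and after quantile normalization the first was 1.52 (limma adjusted p = 0.00451). From MTAL to OMCD no mouse exceeded 3.05 TPM, and in IMCD it was 60.3, 163 and 235. The fall from ATL to MTAL was 5.64 log2 units (SE 0.41, limma adjusted p = 1.56e-15) and the rise from OMCD to IMCD 5.50 (SE 0.41, limma adjusted p = 4.99e-15). IMCD had the highest mean TPM and PTS2 the highest mean on the log scale, and the 8 groups from IMCD to DTL1 in the order of their means overlapped from each to the next.

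Of the members with a group mean of at least 10 TPM, which leaves out Kcnma1, Kcnk5 also varied most between mice of a segment. Over the 8 groups with a mean of at least 10 TPM its median coefficient of variation between mice was 51.3%, with the highest in DTL3 at 79.8%, while pieces of the same mouse differed by a median of 12.04% over 16 mice. For Kcnj1, Kcnj10, Kcnj16, Kcnk1, Kcne1 and Kcnq1 the median between mice was 5.40% to 14.5%, for Kcnj15 18.6% and for Kcnj13 22.5%. The PTS1 to PTS2 difference was 1.40 log2 units (SE 0.40, limma adjusted p = 0.00721). Without the lowest PTS1 mouse Kcnk5 in PTS1 minus PTS2 was -0.99 (adjusted p = 0.152, limma). Under quantile normalization it was -0.87 (limma adjusted p = 0.106), and the call was lost in each case.

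Kcnq1 encodes a voltage-gated channel that can open at rest or slowly depending on its accessory subunit, and Kcne1 encodes one such subunit. Kcnq1 increased along the distal nephron: 19.0, 32.1 and 34.8 TPM in MTAL, between 49.5 and 65.0 (median 58.6) in the 5 CTAL mice, 175, 176 and 189 in DCT, and 293, 299 and 317 in CNT. It was between 275 and 309 TPM (median 291) in the 5 CCD mice, 220, 240, 244 and 253 in OMCD and 13.5, 22.9 and 24.0 in IMCD. CNT and CCD mice overlapped and were above those of OMCD, and OMCD was above DCT, DCT above CTAL and CTAL above MTAL with no overlap. The step from CTAL to DCT was 1.60 log2 units (SE 0.27, limma adjusted p = 1.48e-05) and that from OMCD to IMCD 3.58 (SE 0.28, limma adjusted p = 2.05e-14). The step from MTAL to CTAL was 1.07 (SE 0.27, limma adjusted p = 0.00705), and without the lowest MTAL mouse Kcnq1 in MTAL minus CTAL was -0.80 (adjusted p = 0.173, limma). That call was also lost with a pseudocount of 0.1, at -1.09 (limma adjusted p = 0.226), and with one of 5, at -0.96. Median ratio rescaling gave -0.99 and quantile normalization -0.90 (limma adjusted p = 0.0853), and neither passed.

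Kcne1 was abundant in CNT and CCD. It was 774, 798 and 854 TPM in CNT, between 636 and 730 (median 655) in the 5 CCD mice, 15.4, 23.3 and 44.8 in DCT, and 1.78, 4.61, 5.03 and 5.94 in OMCD. The pieces of the highest DCT mouse, mouse 3, were 5.76 and 83.8 TPM, and without the second the DCT mean was 14.8 TPM in place of 27.8. In no other mouse did it exceed 1.18 TPM, and it was listed at 0 in every PTS3 and MTAL mouse. CNT mice were above CCD mice without overlap, but the difference of 0.28 log2 units did not pass (SE 0.21, limma adjusted p = 1). The rise from CTAL to DCT was 4.06 log2 units (SE 0.21, limma adjusted p = 2.66e-20), from DCT to CNT 5.29 (SE 0.23, limma adjusted p = 3.23e-22), and the fall from CCD to OMCD was 7.07 (SE 0.19, limma adjusted p = 7.63e-30).

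Kcnq1 was found in several segments with little Kcne1. The ratio of mean Kcnq1 to mean Kcne1 was 0.375 in CNT, 0.433 in CCD, 6.47 in DCT (11.9 without that piece) and 55.1 in OMCD, and in CTAL 58.8 ± 6.3 TPM of Kcnq1 stood beside 0.25 ± 0.12 of Kcne1 (n = 5). The sum of 7 intercalated cell markers was 6380 to 6771 TPM in CNT, 4593 to 6024 in CCD, 3706 to 4933 in OMCD and 961 to 1061 in DCT, so the OMCD and CCD ranges overlapped. Slc26a4, a marker of type B intercalated cells, averaged 2475 TPM in CNT, 1769 in CCD, 271 in DCT and 4.4 in OMCD, and its part in the Kcne1 level was not tested. In the proximal tubule the highest value of either gene in any mouse was 0.545 TPM, of Kcne1 in PTS2. Kcnq1 minus Kcne1 there was -0.24 ± 0.19 log2 units in PTS2 (n = 5) and 0.06 ± 0.10 in PTS3 (n = 3), a difference of -0.30 (two-sided exact permutation p = 0.0357, adjusted p = 0.0357 over 3 tests). With any 1 of these 8 mice left out it no longer passed (exact permutation, adjusted p from 0.0571 to 0.190), and both genes were close to absent there, with Kcnq1 averaging 0.145 and 0.045 TPM and Kcne1 0.367 TPM in PTS2 and listed at 0 in PTS3, so nothing is read from this test.

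Kcnq1 was also found in descending limbs, at 12.1, 25.7 and 38.2 TPM in DTL3 against 4.30, 4.64 and 8.06 in DTL2, a difference of 1.996 log2 units (SE 0.30, limma adjusted p = 1.70e-06). DTL3 also carried 1495 to 1883 summed TPM of 7 principal cell markers, of which Fxyd4 at 1722 TPM made up most, and Aqp2 averaged 12.7 TPM. Kcnq1 shares its locus with the antisense transcript Kcnq1ot1, which peaked in GL at 3.55 TPM where Kcnq1 was 0.98 ± 0.46 (n = 3), and was 0.29 TPM in CNT. The overlapping Gm38095 averaged 14.6 TPM in DTL1, 8.06 in ATL and 7.84 in DTL3 and Gm27803 averaged 14.3 in DTL1, both on the strand of Kcnq1, and how reads were split between them and Kcnq1 was not tested.

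Kcnma1 encodes the BK channel, which opens with voltage and calcium and secretes potassium when urine flow is high. Its highest group mean was the lowest among the 10 genes. The highest mean was 5.28 ± 3.3 TPM in DTL1, from mice at 3.10, 3.66 and 9.09. It was between 3.66 and 6.72 TPM (median 4.98) in the 5 PTS2 mice, 2.14, 4.21 and 4.41 in PTS3, and 2.35, 3.60 and 4.25 in GL. In ATL it was 0, 0.01, 2.33 and 7.73, the widest range of any group. These were mice 3, 2, 6 and 4 in that order, with 17, 29, 659 and 576 receptor genes at 1 TPM or more. With ATL mice 2 and 3 alone Kcnma1 passed in DTL3 minus ATL, at 1.73. With mice 4 and 6 alone Kcnma1 passed in ATL minus MTAL, at 1.87, and the part of trace signal in its ATL level was not tested. In CNT and CCD, where BK current is known, it was near 0, at 0.015, 0.12 and 0.18 TPM in CNT and between 0.01 and 0.18 (median 0.13) in the 5 CCD mice, and OMCD held 0.55, 0.99, 1.15 and 1.77. PTS1, at 0.28, 0.46 and 0.52 TPM, was below PTS2 by 2.03 log2 units (SE 0.37, limma adjusted p = 3.25e-05). With a pseudocount of 5 PTS1 minus PTS2 was -0.86 and no longer reached 1 unit.

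The call of Kcnma1 between DTL1 and DTL2 (1.07 log2 units, SE 0.42, limma adjusted p = 0.0331) was lost without the highest DTL1 mouse, at 0.63 (limma adjusted p = 0.257), and without DTL2 mouse 1 or mouse 3, at 0.79 and 1.12 (limma adjusted p = 0.169 and 0.0548). Quantile normalization took it to 0.022 (limma adjusted p = 0.983) and median ratio rescaling to 0.87 (limma adjusted p = 0.0798). With pseudocounts of 0.1 and 5 it was 1.49 (limma adjusted p = 0.146) and 0.54, and the call was lost with each. It was also lost with the mouse as a random block, at 0.98, and with the replicate block, at 0.89. Trace signals were most frequent in DTL1 and GL, where Kcnma1 was also among its highest, whereas PTS2 and PTS3 had medians of 1 and 3 receptor genes. Markers of smooth muscle, a known site of Kcnma1, and of mesangial cells, 8 in all, summed to 0.74 to 2.53 TPM in PTS2 and 34.4 to 53.8 in DTL1, against 1132 to 1456 in GL, and their part in the Kcnma1 level was not tested. Of the BK accessory genes, 3 had a group mean of at least 10 TPM. Kcnmb4, named after its values were seen, averaged 19.8 TPM in DTL1 and 10.5 TPM in GL. Lrrc26 averaged 39.1 ± 15 TPM in DTL3 and 29.8 ± 15 in IMCD (n = 3 each), and Lrrc52 averaged 49.2 ± 1.2 in DCT (n = 3), where Kcnma1 was 0.11 ± 0.08.

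Members resembled each other in part. Over the 15 group means of log2(TPM + 1), Pearson's r was 0.946 between Kcnj1 and Kcnj10, 0.852 between Kcnj1 and Kcnq1 and 0.706 between Kcnq1 and Kcne1. It was 0.455 between Kcnj10 and Kcnj16, 0.042 between Kcnj15 and Kcnj16 and -0.932 between Kcnj1 and Kcnk5. These are descriptions over 15 points that share libraries and trace signals.

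Of 100 potassium channel and accessory genes found by symbol, 90 were not members. Of these, 78 passed the floor and all 78 passed the F-test, near the 93.9% of all genes. The highest group mean reached 10 TPM in 25 of the 90 and stayed under 1 TPM in 11. By a rule that took the 2 most abundant of each family, the Kir genes named were Kcnj12 at 49.7 ± 2.4 and Kcnj5 at 38.3 ± 2.2 TPM, both in GL, and the K2P genes were Kcnk6 at 10.8 ± 0.80 in GL and Kcnk7 at 6.45 ± 5.5 in DTL1 (n = 3 each). The voltage-gated ones were Kcng2 and Kcnf1 in GL, at 54.6 ± 3.2 and 39.5 ± 6.9 TPM (n = 3 each), which encode modifier subunits that do not conduct alone. The calcium- or sodium-activated ones were Kcnt1 and Kcnn2 in MTAL, at 58.6 ± 22 and 37.4 ± 6.5 TPM (n = 3 each), both followed by CTAL at 26.2 ± 11 and 22.0 ± 1.3 (n = 5 each). All 18 transporter and pump genes that work with the channels passed the F-test as well.

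The genes most like each member, by Pearson's r over the 15 group means among 12067 genes with a peak of at least 10 TPM, were read as a description. Kcnj1 was near Defb11 (r = 0.989) and Defb1 (0.972), and Kcnj10 was nearest to Slc16a5 (0.985), Defb2 (0.975) and Defb11 (0.964). Kcnj15 was nearest to Lrp2 (0.995), which encodes megalin, Lrrc19 (0.993) and Sucnr1 (0.991). Kcne1 was nearest to Tmem163 (0.992), Hmx2 (0.988) and Cyp1a1 (0.982), and Kcnq1 to Pip4k2c (0.959), Mfsd6l (0.954) and Tspan1 (0.939). Kcnj16 was nearest to Usmg5 (0.935), Cox5a (0.934) and Timm8b (0.920), which encode mitochondrial proteins, and Kcnma1 to Kcnj8 (0.965), Pcdh17 (0.928) and Ccl28 (0.927). Kcnk5 was nearest to Folr1 (0.925), Sod1 (0.902) and Rpp40 (0.896), Kcnj13 to Phactr1 (0.894), Megf9 (0.886) and Mycbpap (0.881), and Kcnk1, with the lowest values, to Pigyl (0.840), Thtpa (0.834) and Cyb561 (0.829).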

How the data were processed

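The labels' protocols give RNA extraction with Direct-zol kits, cDNA from the SMARTer V4 ultra-low kit and Nextera XT libraries. STAR 2.5.4a and RSEM 1.3.0 are named in the submitters' processing notes without a role, and the genome build and annotation are not given in the sources used here. The authors deposited TPM, which sum to between 999998.6 and 1000190.3 in each of the 93 sample columns, so read depth is unknown and no counting interval is given. The authors' segment means in the same table and 3 single-cell samples were not used here. The name of 1 PTS2 column fitted no sample title, and it entered as an unnumbered mouse of that segment.

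Pieces of 1 mouse number and segment were averaged, as TPM for levels and as log2(TPM + 1) for tests, giving 53 combinations in 15 groups, each taken as 1 mouse, since the series' design text counts 53 mice. Genes that reached a TPM of 1 in 3 or more mice were fitted in limma 3.58.1 (R 4.3.3) with a trended prior. Tests were the F-test, an intersection-union test of the highest group against all others (one-sided against 0, with an estimated margin of at least 1 log2 unit also required) and 14 two-sided neighbouring contrasts, each with Benjamini-Hochberg adjustment over all genes. Log2 differences on this scale understate changes of low genes. Subunit differences were compared by exact permutation over all splits (Python 3.11.15, numpy 2.4.6). The limma steps were tested on simulated data. Members, lists and tests were chosen with earlier results of these data known. The text names the members, the 2 most abundant genes of each channel family and the 3 genes most like each member (predicted, mitochondrial and ribosomal names passed over), and partner genes beside a member's result. A few genes these rules name are not reported here. Marker lists were those of proximal tubule, thick limb, principal, intercalated, endothelial, mesangial and smooth muscle, podocyte, leukocyte and erythroid cells. Alternatives were other pseudocounts, filters, scalings, piece averaging, blocks and priors, ATL split by mouse, and each mouse left out.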

Additional observations from a re-analysis of the deposited data

Results flagged for a closer look

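In groups of 4 or 5 mice, 33 member levels were examined for a mouse far from the others by Dixon's criterion, and 1 stood out. Kcnk1 in OMCD was 130.545 TPM in mouse 4 against 152 to 154 TPM in the other 3 mice. Chance marks about 1 such group in 20.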

How the results depend on the processing

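All 10 members kept their difference among the 15 groups under each alternative setting for which that test was run and with each of 53 mice left out. The number of members above every other group was 1, became 2 under quantile normalization, with Kcnk1 in DTL1 added, and ranged from 1 to 2 with a mouse left out. An alternative chosen after seeing the data, without GL, DTL1, DTL2, DTL3 and ATL, gave 0, since it leaves out the ATL mice. The 50 differences between neighbouring segments ranged from 42 with a pseudocount of 5 to 59 with one of 0.1, and from 48 to 53 with a mouse left out. The count was again 50 without the DCT piece that held most Kcne1, also chosen after seeing the data. Of the 50 calls, 33 held under every setting run and with each mouse left out. Kcnk1 in PTS3 minus DTL2 reversed to 0.13 under median ratio rescaling, and Kcnma1 in PTS3 minus DTL1 reversed to 2.22 under quantile normalization, and the cause was not tested. With the mouse number as a replicate block the count was again 50. Kcnj1 passed between PTS3 and DTL1 and between DTL3 and ATL. Kcnj16 between PTS1 and PTS2 fell to 0.996 and Kcnma1 between DTL1 and DTL2 to 0.89, and both calls were lost. The numbers do not name shared animals. The median correlation of deviations was -0.0027 over 290 pairs of mice with the same number and -0.00018 over 968 pairs with different numbers. Of these pairs 16 and 28 were above 0.1, and a median cannot tell whether some pairs share an animal. The differences in subunit balance ranged from -1.48 to -1.29 for Kcnj10 minus Kcnj16, from 7.18 to 10.3 for Kcnj15 minus Kcnj16 and from -1.13 to -0.073 for Kcnq1 minus Kcne1. With a mouse left out the first ranged from -1.53 to -1.36 and the second from 8.93 to 9.12. The third ranged from -0.36 to -0.24 and no longer passed (exact permutation, adjusted p from 0.0571 to 0.190), and the cause was not tested. Depth is unknown, so the counting error of values of a few TPM could not be estimated.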

Other observations

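Several channel genes outside the members were abundant in few segments. These genes were chosen after their values were seen, as those with a highest group mean of at least 10 TPM. Kcnh2, which encodes a slowly deactivating voltage-gated channel, averaged 34.3 TPM in DTL2 and 8.05 in DCT. Kcns3, a modifier subunit, averaged 26.1 TPM in CNT, 34.5 TPM in CCD and 33.9 TPM in OMCD, and was also present at 10.7 TPM in both MTAL and IMCD and 8.38 TPM in CTAL. Kcnh5 averaged 4.46 TPM in CNT, 10.6 in CCD and 7.58 in OMCD, and Kcnc2 7.17, 13.7 and 19.5. Kcng1 averaged 13.7 TPM in PTS2 and 22.9 in PTS3, and Kcnip2, a cytoplasmic accessory protein, 23.4 in IMCD. Kcnj8, a pore subunit of ATP-sensitive channels, averaged 23.1 TPM in DTL1 and 12.2 in PTS2.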
